A study of Mus musculus with 6 samples.

Results

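The semaphorin, Slit and netrin guidance systems were followed in the carotid body and the adrenal medulla of adult mice. Members were all entries of the deposited expression table whose symbol names a semaphorin of class 3 to 7, a plexin, a neuropilin, a Slit, Robo1 to Robo3, a netrin, an Unc5 receptor or Dcc. This gave 46 of 26728 entries, made up of 20 semaphorins, 9 plexins, 2 neuropilins, 3 Slits, 3 Robos, 4 netrins and 5 netrin receptors. RNA sequencing covered 6 libraries, 3 from each tissue. The mice were untreated C57/BL6 adults from Charles River, with no engineered allele or treatment named for either tissue. A carotid body library held 18 carotid bodies and an adrenal medulla library held 10 adrenal medullas, in each case from 10 mice, so each library is a pool and n counts pools. The pools carry the numbers 1 to 3 in each tissue and are called carotid pools and adrenal pools.

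Guidance cues are secreted or membrane-bound proteins that attract or repel growing axons and also act on migrating cells and vessels. Class 3 semaphorins are secreted and signal through neuropilins paired with plexins, whereas most membrane-bound semaphorins bind plexins directly. Slits are secreted ligands of Robo receptors. Netrins attract through Dcc and its relative neogenin and repel through Unc5 receptors. The carotid body, which senses arterial oxygen, is reached by sensory fibres of the glossopharyngeal nerve, and the adrenal medulla by preganglionic sympathetic fibres. Both tissues also hold vessels, glia and connective tissue.

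Levels are given in RPKM, which the authors made by dividing an mRNA's reads by its length in kilobases and by the reads of the library. Library depth, read from the spacing of the RPKM values, was 13266225 to 16445925 reads, so 1 read on a 2 kb mRNA was worth 0.0304 to 0.0377 RPKM. Differences are carotid body minus adrenal medulla in log2(RPKM + 1) and are followed by their standard error (SE). Adding 1 makes the difference of a low gene look smaller than it is. A gene was called when the Benjamini-Hochberg adjusted p of limma, over the 13357 genes with 3 or more libraries at 1 RPKM or above, was under 0.05. Adjusted p-values measure only the spread between these pools. Adrenal medulla pool 3 held almost no Y-linked reads (Ddx3y at 0.0786 RPKM against 33.7 and 33.0 in pools 1 and 2), and carotid pool 2 and adrenal pool 3 were the richest of their tissue in fat transcripts. The summed level of 9 adipocyte markers was 3788 RPKM in carotid pool 2 and 2341 RPKM in adrenal pool 3, against 231 to 929.5 RPKM in the other libraries.

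Of the 46 members, 32 passed the filter on low values and 14 did not. Of the 32, 15 were called, against 21.9% of all genes tested, and 17 were not. The carotid body had the higher level for 12 of them and the adrenal medulla for 3, or 37.5% and 9.38% of the tested members, where 14.2% and 7.73% of all genes were called in these directions. All 3 carotid pools lay above all 3 adrenal pools for 13 members and below them for 6, against 22.3% and 14.7% of all genes tested. The median log2 difference was 0.49 over the 32 members and 0.02 over all genes tested. Sema3e, Plxnb3, Ntn1 and Ntn4 passed the filter only through the carotid body and Sema5b only through the adrenal medulla, so that these 5 had to differ to be tested and the counts describe the list without testing it. By role, 9 of 19 tested ligands and 3 of 13 tested receptors were called toward the carotid body, and 1 ligand and 2 receptors toward the adrenal medulla; the difference between the roles was not tested. Without carotid pool 2 and adrenal pool 3 the counts were 14 and 5. Toward the adrenal medulla limma called 0 members without carotid pool 1 and 0 without carotid pool 3, with 4 and 6 at an unadjusted p under 0.05. It called 1 without carotid pool 2, 2 without adrenal pool 2 and 5 without adrenal pool 3. The counts toward either tissue were 14 and 5 with the pool number as a block, 11 and 5 under quantile scaling and 10 and 0 with no filter, where 9 members had an unadjusted p under 0.05 in the adrenal medulla direction. With voom on recovered reads they were 12 and 4.

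**Figure D1:**
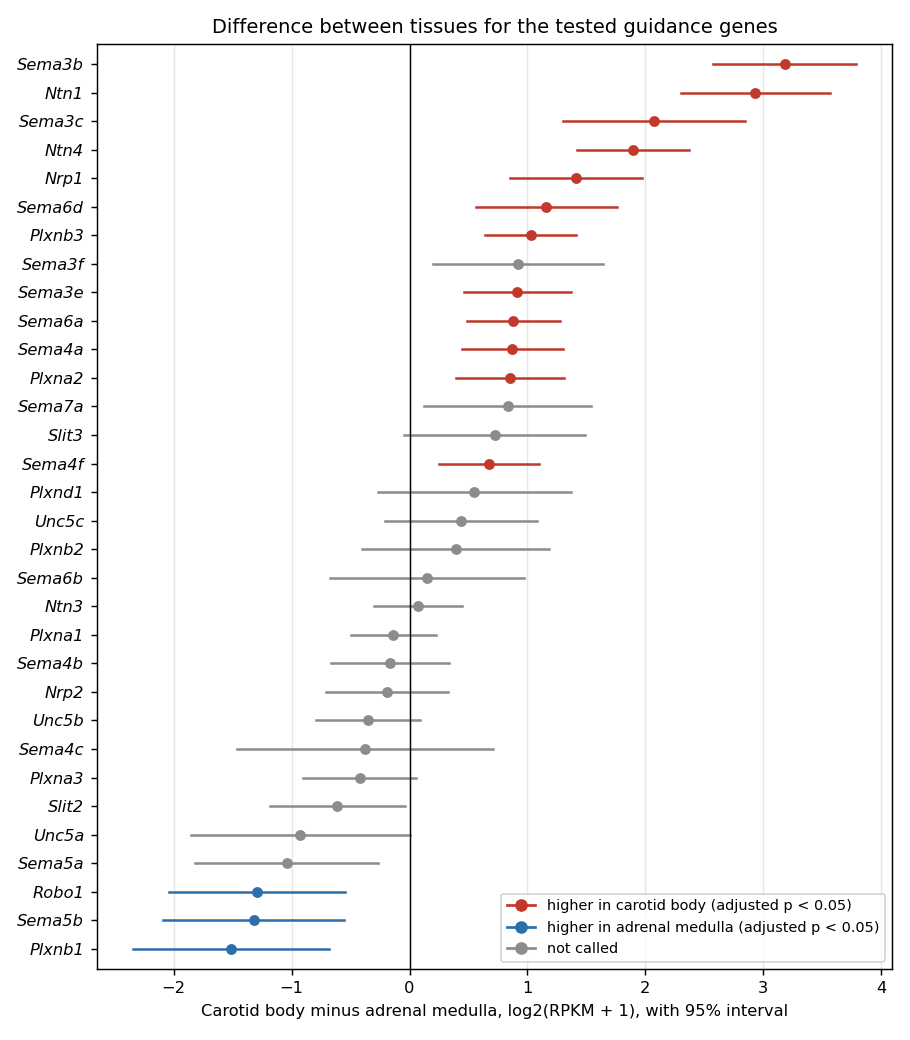
Difference between tissues for each of the 32 tested guidance genes (points, carotid body minus adrenal medulla on the log2(RPKM + 1) scale; bars, 95% interval of limma; n = 3 pools per tissue). Red marks the 12 genes called toward the carotid body, led by Sema3b at 3.18, blue the 3 called toward the adrenal medulla, with Plxnb1 at -1.51, and grey the 17 not called.

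Marker genes of other cell types moved between the same libraries. Higher in the carotid body were 9 of 9 tested fibroblast markers, summed at 2441 to 3128 RPKM against 72.0 to 184 RPKM, and 9 of 10 for smooth muscle and pericytes, summed at 2548 to 3083 against 107 to 111 RPKM. The same held for 8 of 8 tested Schwann cell and glia markers, at 368 to 543 against 50.05 to 73.7 RPKM, for 8 of 10 endothelial markers, at 532 to 642 against 226 to 263 RPKM, and for 3 of 6 lymphatic markers, at 57.3 to 83.7 against 8.36 to 16.7 RPKM, while a further lymphatic marker, Prox1, was called toward the adrenal medulla (-1.46). For the adrenal cortex, 11 of 11 markers had the higher level in the adrenal medulla, summed at 11690 to 16177 against 41.4 to 140 RPKM. Neuronal markers overlapped between the tissues, at 240 to 330 against 205 to 401 RPKM, with 2 of 10 higher in the carotid body, and 8 of 8 tested adipocyte markers were not called. Macrophage markers were higher in the carotid body for 3 of 9, with overlapping sums of 686 to 793 against 306 to 731 RPKM. Markers of the catecholamine-secreting cells themselves were present in both tissues, summed at 2278 to 3151 against 10447 to 20723 RPKM. Of these 8, 5 (Th, Dbh, Chga, Chgb and Slc18a1) were called toward the adrenal medulla and 1 (Ddc) toward the carotid body. Some markers passed the filter only through the tissue where they were high (Ccl21a, Mmrn1, Cspg4, Cnn1, Myh11, Egr2 and Prx in the carotid body, Prox1, Nr5a1 and Cyp11b2 in the adrenal medulla). No marker was at 0 in all pools of a tissue. Those listed at 0 in some pools were the lymphatic chemokine Ccl21a in adrenal pool 2, Cyp11b2 in carotid pools 2 and 3, and Ucp1 in pool 1 of each tissue. The part of these cell types in the differences of the guidance genes was not tested, and in whole tissue fewer cells of a type cannot be told apart from less RNA per cell.

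Of the 4 tested class 3 semaphorins, the secreted ligands of neuropilins, 3 were higher in the carotid body. Sema3b, a neuropilin ligand that is also known for restraining tumour growth, stood at 19.9, 26.7 and 34.9 RPKM in carotid pools 1, 2 and 3 and at 1.55, 2.00 and 2.65 RPKM in the adrenal pools. The lowest carotid pool lay far above the highest adrenal pool, and the difference was 3.18 ± 0.27 (SE), the largest among the 32 tested members (adjusted p = 7.78e-05). Sema3c, which guides neural crest cells into the cardiac outflow tract, was at 3.73, 10.0 and 8.57 RPKM against 1.20, 1.07 and 0.466 RPKM. Its tissues did not overlap, although carotid pool 1 held less than the other two (2.07 ± 0.34, adjusted p = 0.00238). Sema3e, which can signal through plexin D1 without a neuropilin, was at 1.89, 2.71 and 1.67 RPKM against 0.584, 0.937 and 0.398 RPKM. The groups were again apart (0.91 ± 0.20, adjusted p = 0.0109), and the difference read 1.60 with a pseudocount of 0.1. Sema3e, unlike Sema3b and Sema3c, passed the filter only through the carotid body, so its groups had to be apart for it to be tested.

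Sema3f, which acts through neuropilin 2, was at 5.18, 5.998 and 7.87 RPKM in the carotid body and 1.49, 3.08 and 4.57 RPKM in the adrenal medulla. The tissues did not overlap, but the gene was not called (0.92, adjusted p = 0.0719). It passed with the pool number as a block (adjusted p = 0.0174), without adrenal pool 3 (1.19, adjusted p = 0.0153) and without carotid pool 2 and adrenal pool 3 (1.22, adjusted p = 0.0345). As labelled, the pools numbered 3 cannot hold the same set of mice, which limits the values with the block here and below. Summed over the 7 class 3 genes, the level was 31.9, 48.0 and 55.5 RPKM in the carotid body and 5.74, 8.37 and 8.50 RPKM in the adrenal medulla. Sema3b made up 55.6% to 62.9% of that sum in the carotid pools and 23.9% to 31.1% in the adrenal pools. In the adrenal medulla Sema3f was the most abundant class 3 gene of pools 2 and 3.

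**Figure D2:**
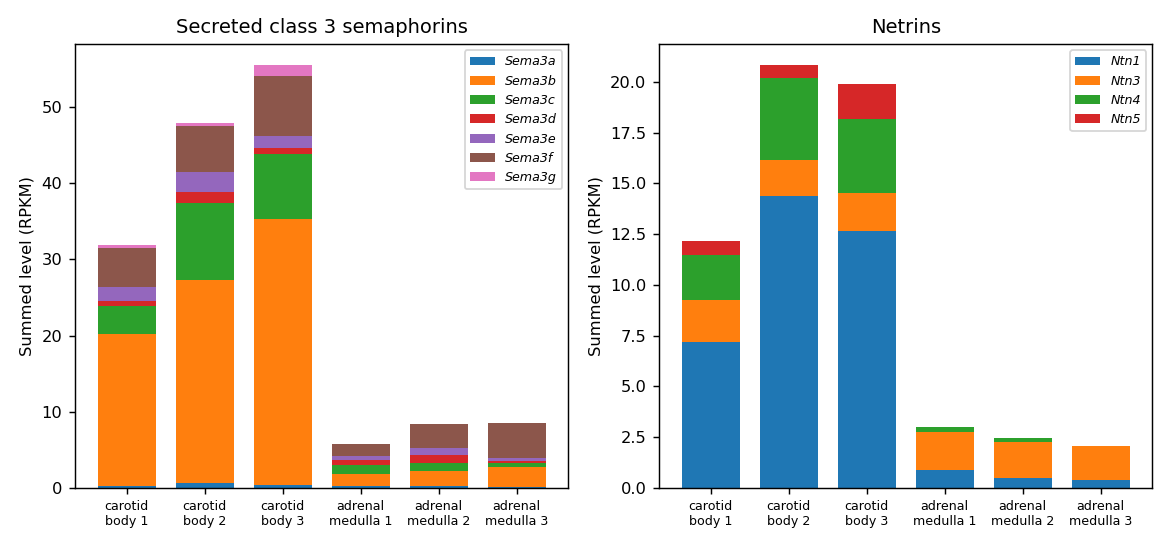
Summed level, in RPKM from 0, of the 7 class 3 semaphorins (left) and the 4 netrins (right) in each of the 6 libraries, with each gene as a coloured segment. Sema3b fills more than any other segment in each carotid body bar of the left panel, and the netrin sum is 12.2 to 20.8 RPKM in the carotid body against 2.07 to 2.97 RPKM in the adrenal medulla.

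Promoter sequences are shown for 3 members called toward the carotid body and 2 called toward the adrenal medulla, to set the letters upstream of genes with opposite differences side by side. They are the called members with the largest differences among those listed in the RefSeq promoter table of GRCm38.p6, a later build than the mm9 used for the reads. Each window runs from 250 bases before to 50 bases after the start of the gene, on the plus strand, 5′ to 3′. The windows are chr5:17574566-17574865 for Sema3c, chr10:93640799-93641098 for Ntn4, chr8:128358823-128359122 for Nrp1, chr9:109095186-109095485 for Plxnb1 and chr16:35541112-35541411 for Sema5b. Capitals mark ACGTG and GCGTG on either strand, the core letters bound by hypoxia-inducible factors, chosen because the carotid body senses oxygen.
Sema3c: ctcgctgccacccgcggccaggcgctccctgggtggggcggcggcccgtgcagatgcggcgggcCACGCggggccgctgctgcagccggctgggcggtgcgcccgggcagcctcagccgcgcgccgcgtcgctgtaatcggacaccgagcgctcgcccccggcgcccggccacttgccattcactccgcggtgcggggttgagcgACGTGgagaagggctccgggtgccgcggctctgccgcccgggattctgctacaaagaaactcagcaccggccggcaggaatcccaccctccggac
Ntn4: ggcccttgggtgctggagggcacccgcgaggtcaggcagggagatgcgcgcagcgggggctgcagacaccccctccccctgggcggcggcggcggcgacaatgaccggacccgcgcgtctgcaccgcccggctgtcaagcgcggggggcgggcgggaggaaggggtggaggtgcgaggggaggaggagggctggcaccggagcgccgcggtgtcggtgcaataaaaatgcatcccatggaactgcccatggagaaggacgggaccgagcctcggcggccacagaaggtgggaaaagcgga
Nrp1: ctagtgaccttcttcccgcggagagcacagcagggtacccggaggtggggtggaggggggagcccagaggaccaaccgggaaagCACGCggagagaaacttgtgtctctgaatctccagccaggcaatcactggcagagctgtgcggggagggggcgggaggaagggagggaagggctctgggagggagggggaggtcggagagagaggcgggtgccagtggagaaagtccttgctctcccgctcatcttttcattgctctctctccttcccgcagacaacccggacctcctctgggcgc
Plxnb1: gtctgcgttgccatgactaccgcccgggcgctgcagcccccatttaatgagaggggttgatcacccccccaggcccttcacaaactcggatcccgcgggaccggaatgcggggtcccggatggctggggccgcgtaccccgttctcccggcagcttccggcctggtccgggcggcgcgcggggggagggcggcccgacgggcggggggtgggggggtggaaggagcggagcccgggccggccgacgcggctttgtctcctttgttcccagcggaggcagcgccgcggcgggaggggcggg
Sema5b: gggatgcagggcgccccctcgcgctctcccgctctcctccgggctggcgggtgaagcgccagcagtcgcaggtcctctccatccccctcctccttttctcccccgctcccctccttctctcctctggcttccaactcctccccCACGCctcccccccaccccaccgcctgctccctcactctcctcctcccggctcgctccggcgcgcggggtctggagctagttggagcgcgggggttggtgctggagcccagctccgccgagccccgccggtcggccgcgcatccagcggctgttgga
The Sema3c window held 1 match to ACGTG and 1 to GCGTG, those of Nrp1 and Sema5b held 1 match to GCGTG each, and those of Ntn4 and Plxnb1 held neither. Among all 32851 windows in the table, 19.6% held ACGTG and 32.4% held GCGTG. By gene, ACGTG was present for 8 of the 37 members with a window and for 21.8% of the 27025 genes with a window. It was present for 3 of the 9 members with a window that were called toward the carotid body, Sema3c, Sema3e and Sema6d, and for 0 of the 3 called toward the adrenal medulla. GCGTG was present for 17 of the 37 members and for 35.2% of genes with a window, and for 3 of those 9 and 2 of those 3. Matches on opposite strands can overlap in CACGTG. A match is a description of letters and not of binding.

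Membrane-bound semaphorins differed in both directions, with 4 tested genes called toward the carotid body and 1 toward the adrenal medulla. Sema6a, a transmembrane ligand of plexins A2 and A4, was at 2.28, 2.64 and 2.45 RPKM in the carotid body and 1.20, 0.751 and 0.714 RPKM in the adrenal medulla (0.88 ± 0.17, adjusted p = 0.00677). The carotid pools lay close together and above every adrenal pool, and a pseudocount of 0.1 gave 1.403. Sema6d, a ligand of plexin A1, was at 4.50, 5.63 and 4.13 RPKM against 2.00, 2.16 and 0.768 RPKM (1.16 ± 0.26, adjusted p = 0.0132). Its call ended with no filter on low values (1.16, adjusted p = 0.0705). Sema4a, which acts on endothelial and immune cells, was at 5.02, 4.96 and 4.06 RPKM against 2.19, 2.15 and 1.94 RPKM, with little spread within either tissue (0.87 ± 0.19, adjusted p = 0.00988).

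Sema4f was at 4.27, 4.21 and 3.57 RPKM against 2.105, 1.91 and 2.42 RPKM (0.67 ± 0.19, adjusted p = 0.0316). The tissues did not overlap, yet the call ended without carotid pool 1, 2 or 3 (0.636, 0.645 and 0.739, adjusted p = 0.0890, 0.0945 and 0.0679). Without adrenal pool 1 or 2 the call ended too (0.665 and 0.619, adjusted p = 0.0888 and 0.143). It also ended under median-ratio scaling (0.611, adjusted p = 0.0527) and quantile scaling (0.518, adjusted p = 0.0993). Sema7a, a membrane-anchored ligand of plexin C1 and of integrins, was at 2.58, 1.44 and 4.78 RPKM against 1.11, 1.47 and 0.721 RPKM and was not called (0.83, adjusted p = 0.0962). Carotid body pool 2 lay within the adrenal medulla range, and without it the gene passed (1.13, adjusted p = 0.0281), as it did without that pool and adrenal pool 3 (1.00, adjusted p = 0.0409).

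The class 5 semaphorins are transmembrane proteins with thrombospondin repeats, and 1 of the 2 was called. Sema5b was at 0.378, 0.645 and 0.620 RPKM in the carotid body and 2.83, 5.47 and 1.31 RPKM in the adrenal medulla, a difference of -1.32 ± 0.34 (adjusted p = 0.0226). The tissues did not overlap, and the adrenal pools themselves spread widely. Sema5b passed the filter only through the adrenal medulla, so its tissues had to be apart for it to be tested. A pseudocount of 0.1 gave -2.16. The call ended without carotid pool 1, 2 or 3 (differences -1.24, -1.37 and -1.36, adjusted p = 0.0900, 0.0515 and 0.0584). With no filter the call ended too (-1.32, adjusted p = 0.126). Sema5a, which binds plexin B3, was at 2.21, 1.80 and 1.45 RPKM against 8.64, 4.48 and 2.64 RPKM and was not called (-1.04, adjusted p = 0.0603).

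Sema5a passed without adrenal pool 3, its lowest adrenal pool (-1.38, adjusted p = 0.00756), and with the pool number as a block (adjusted p = 0.0178). It also passed under median-ratio scaling (adjusted p = 0.0374), quantile scaling (adjusted p = 0.0214) and with limma's voom on the reads recovered from the RPKM values (adjusted p = 0.0483), and without carotid pool 2 and adrenal pool 3 (adjusted p = 0.0247). The remaining tested semaphorins, Sema4b, Sema4c and Sema6b, were not called, with overlapping tissues. Sema4c was uneven within tissues, at 0.905, 0.673 and 4.91 RPKM in the carotid body and 1.39, 3.94 and 2.51 RPKM in the adrenal medulla, and its 95% interval of -1.47 to 0.71 is wide. The intervals of Sema4b and Sema6b were -0.67 to 0.34 and -0.67 to 0.97.

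**Figure D3:**
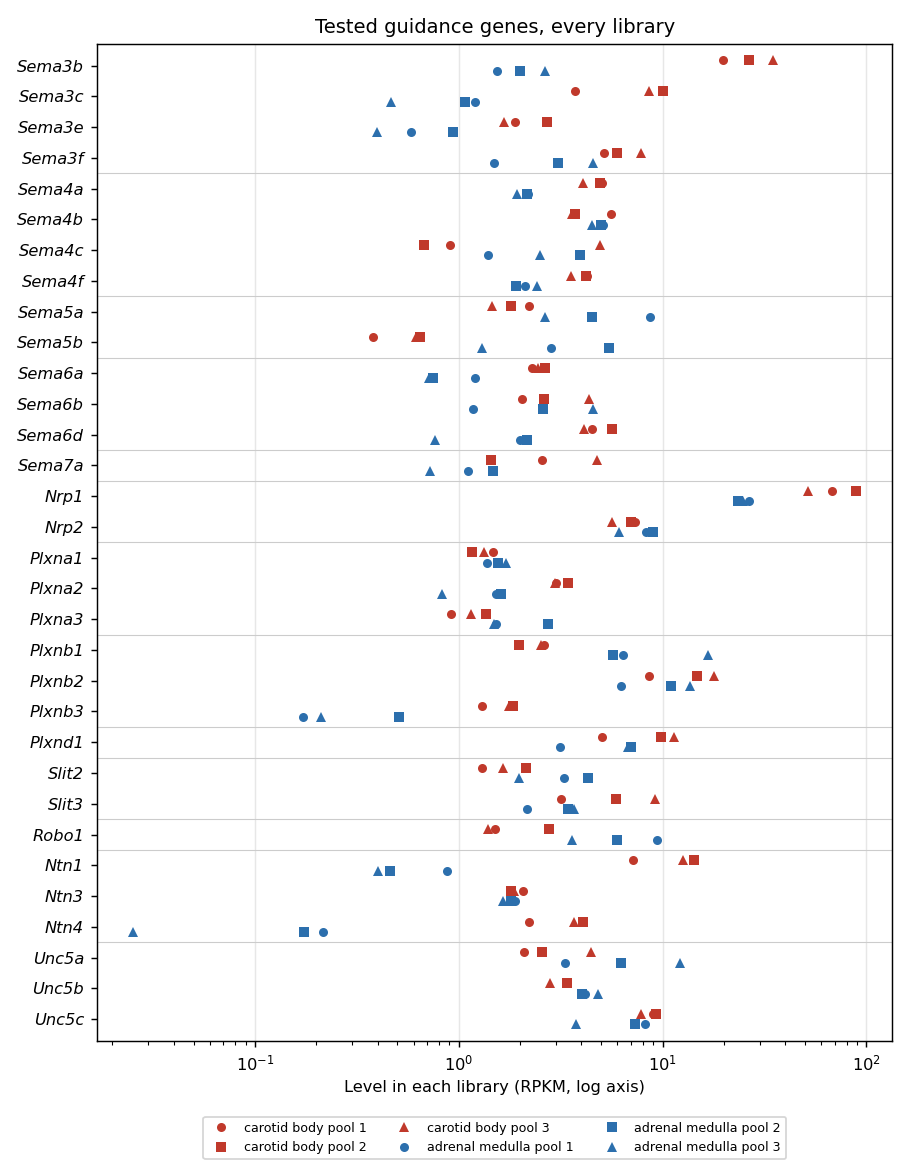
Level of each of the 32 tested guidance genes in every library, in RPKM on a log axis, grouped by family (red, carotid body; blue, adrenal medulla; symbol shape gives the pool number). Sema3b and Ntn1 stand with red points far to the right of blue, Robo1 and Plxnb1 with blue to the right of red, and Nrp1 holds the highest level in each library.

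Among the semaphorin receptors, Nrp1 was the most abundant in every library. Nrp1, the co-receptor of class 3 semaphorins and of vascular endothelial growth factor, was at 68.2, 89.3 and 51.9 RPKM in the carotid body and 26.5, 23.6 and 24.9 RPKM in the adrenal medulla. No other member reached its level in any library, and the tissues did not overlap (1.41 ± 0.24, adjusted p = 0.00337). Nrp2 was at 7.34, 7.01 and 5.64 RPKM against 8.33, 8.93 and 6.13 RPKM and was not called, with overlapping tissues and a 95% interval of -0.71 to 0.33.

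Plexins, which carry the cytoplasmic GTPase-activating domain, differed gene by gene. Plxna2, a receptor of Sema6a and of neuropilin-bound class 3 semaphorins, was at 3.01, 3.45 and 2.97 RPKM in the carotid body and 1.53, 1.60 and 0.831 RPKM in the adrenal medulla (0.85 ± 0.20, adjusted p = 0.0158). Its call ended without carotid pool 2 (0.80, adjusted p = 0.0534) and with no filter (0.85, adjusted p = 0.0510). Plxnb3 was at 1.30, 1.85 and 1.77 RPKM against 0.173, 0.512 and 0.212 RPKM. Its tissues were well apart (1.03 ± 0.17, adjusted p = 0.00265), and a pseudocount of 0.1 gave 2.21. Plxnb3 passed the filter only through the carotid body, so its tissues had to be apart for it to be tested.

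Plxnb1, the receptor of Sema4d, differed in the other direction, at 2.61, 1.97 and 2.54 RPKM in the carotid body and 6.38, 5.73 and 16.8 RPKM in the adrenal medulla (-1.51 ± 0.36, adjusted p = 0.0177). Adrenal medulla pool 3 held well above the other two adrenal pools. The call ended without carotid pool 1, 2 or 3 (differences -1.565, -1.42 and -1.55, adjusted p = 0.0566, 0.0589 and 0.0506). With no filter the call ended too (-1.51, adjusted p = 0.101). The third B plexin, Plxnb2, was not called and its tissues overlapped, at 8.57 to 17.9 against 6.22 to 13.6 RPKM. In each of the carotid pools the order was therefore Plxnb2, Plxnb1, Plxnb3, whereas in adrenal pools 1 and 3 Plxnb1 exceeded Plxnb2. Plxnd1, an endothelial receptor of Sema3e, was at 5.05 to 11.3 against 3.14 to 7.04 RPKM and was not called (interval -0.27 to 1.37). Plxna1 and Plxna3 were not called either, with intervals of -0.50 to 0.23 and -0.90 to 0.05.

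Of the 3 tested netrins, 2 were higher in the carotid body, against 14.2% of all genes tested. Both, Ntn1 and Ntn4, passed the filter only through the carotid body and so had to differ to be tested. Ntn1, the founding axon attractant of the family, was at 7.20, 14.4 and 12.6 RPKM in the carotid body and 0.879, 0.462 and 0.401 RPKM in the adrenal medulla. The lowest carotid pool stood far above the highest adrenal pool (2.93 ± 0.28, adjusted p = 1.37e-04). Ntn4, a laminin-related netrin of basement membranes, was at 2.20, 4.06 and 3.68 RPKM against 0.216, 0.174 and 0.0252 RPKM (1.90 ± 0.21, adjusted p = 3.03e-04). It rested on 14 reads over all adrenal pools and 345 over the carotid pools, and a pseudocount of 0.1 gave 3.90. Ntn3 was nearly level, at 2.08, 1.80 and 1.87 RPKM against 1.88, 1.80 and 1.65 RPKM, and the 95% interval of its difference was -0.30 to 0.44. Ntn1 made up 59.1% to 68.9% of the summed netrin level in the carotid pools, and Ntn3 made up 63.2% to 79.4% of it in the adrenal pools.

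Of the 3 tested netrin receptors, limma called 0 in either direction, with 0 at an unadjusted p under 0.05, and voom on recovered reads also called 0. Unc5c was the most abundant of them in the carotid body, at 8.999, 9.31 and 7.83 RPKM against 8.23, 7.32 and 3.76 RPKM (interval -0.21 to 1.08). Unc5b, an endothelial netrin receptor, was at 3.35, 3.42 and 2.80 RPKM against 4.17, 4.04 and 4.84 RPKM, with the tissues apart but the difference small (-0.35, adjusted p = 0.253). Unc5a was at 2.08, 2.56 and 4.46 RPKM against 3.31, 6.26 and 12.1 RPKM and was not called (-0.93, adjusted p = 0.155). It passed with the pool number as a block (adjusted p = 0.0205) and without adrenal pool 1 (-1.32, adjusted p = 0.0353). The sum over the 4 Unc5 genes and Dcc was 14.6 to 15.5 RPKM in the carotid body and 16.9 to 21.1 RPKM in the adrenal medulla.

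Of the Slit and Robo genes tested, Robo1 was the 1 that was called, and it was higher in the adrenal medulla. Robo1, a receptor that mediates repulsion by Slits, was at 1.503, 2.79 and 1.39 RPKM in the carotid body and 9.37, 5.96 and 3.62 RPKM in the adrenal medulla (-1.29 ± 0.33, adjusted p = 0.0219). The tissues did not overlap, although adrenal pool 3 came near carotid pool 2. Its call ended without carotid pool 1 or 3 (adjusted p = 0.0880 and 0.0854), without adrenal pool 1 or 2 (0.0531 and 0.0622) and with no filter (adjusted p = 0.110). Of the ligands, Slit2 was at 1.30, 2.13 and 1.64 RPKM against 3.29, 4.32 and 1.97 RPKM and was not called (-0.61, adjusted p = 0.131). It passed without adrenal pool 3 (-0.84, adjusted p = 0.0227), without that pool and carotid pool 2 (-0.95, adjusted p = 0.0199) and under quantile scaling (adjusted p = 0.0283). Slit3 was at 3.19, 5.90 and 9.15 RPKM against 2.15, 3.43 and 3.68 RPKM, with overlapping tissues, and was not called (0.72, adjusted p = 0.182). With the pool number as a block it passed (adjusted p = 0.0437).

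The 14 members under the filter reached 1 RPKM in fewer than 3 libraries. Their reads in all ran from 5 against 19 for Robo3 to 344 against 623 for Plxna4, whose mRNA is 12.6 kb long. Robo2 was at 0.351, 0.375 and 0.391 RPKM in the carotid body and 1.95, 1.79 and 0.793 RPKM in the adrenal medulla, or 130 against 522 reads in all. Dcc, the attractive netrin receptor, was at 0.107, 0.197 and 0.156 RPKM against 1.05, 0.902 and 0.294 RPKM, or 68 against 329 reads. For both genes every adrenal pool lay above every carotid pool, with adrenal pool 3 nearest to the carotid body. Ntn5, a further netrin, was at 0.700, 0.613 and 1.70 RPKM in the carotid body, from 88 reads, and had 1 read over the adrenal pools. Sema3g, a secreted semaphorin of arterial endothelium, was at 0.337, 0.470 and 1.38 RPKM against 0.0202, 0.0570 and 0.0330 RPKM, from 120 and 6 reads, with carotid pool 3 highest for this gene and for Ntn5.

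Among these 14, the tissues were apart for 3 with the carotid body above (Sema3a, Sema3g and Ntn5) and for 4 with the adrenal medulla above (Robo2, Robo3, Dcc and Plxna4). Over the 1862 genes under the filter with at least 10 reads in at least 3 libraries, the shares were 29.2% and 14.7%. Robo3 had too few reads to be among these genes. An additional fit with limma's voom on recovered reads tested 15151 genes of at least 10 reads in at least 3 libraries and reached 13 of these 14 members, all but Robo3. It called Ntn5 (adjusted p = 8.35e-04) and Sema3g (adjusted p = 0.00637) higher in the carotid body and Robo2 (-1.89 ± 0.42, adjusted p = 0.0117) and Dcc (-2.096 ± 0.58, adjusted p = 0.0314) higher in the adrenal medulla on its log2 scale of depth-adjusted reads. Ntn5 and Sema3g met the rule of at least 10 reads only through the carotid body and so had to differ to be tested. In that fit 14.4% of genes were called toward the carotid body and 7.70% toward the adrenal medulla. With limma on log2(RPKM + 1) and no filter, 0 of the 14 were called, and 6 had an unadjusted p under 0.05. Sema3d, Sema4d, Sema4g, Sema6c, Plxnc1, Slit1 and Unc5d overlapped between tissues and stayed at or under 1.44 RPKM in every library.

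**Figure D4:**
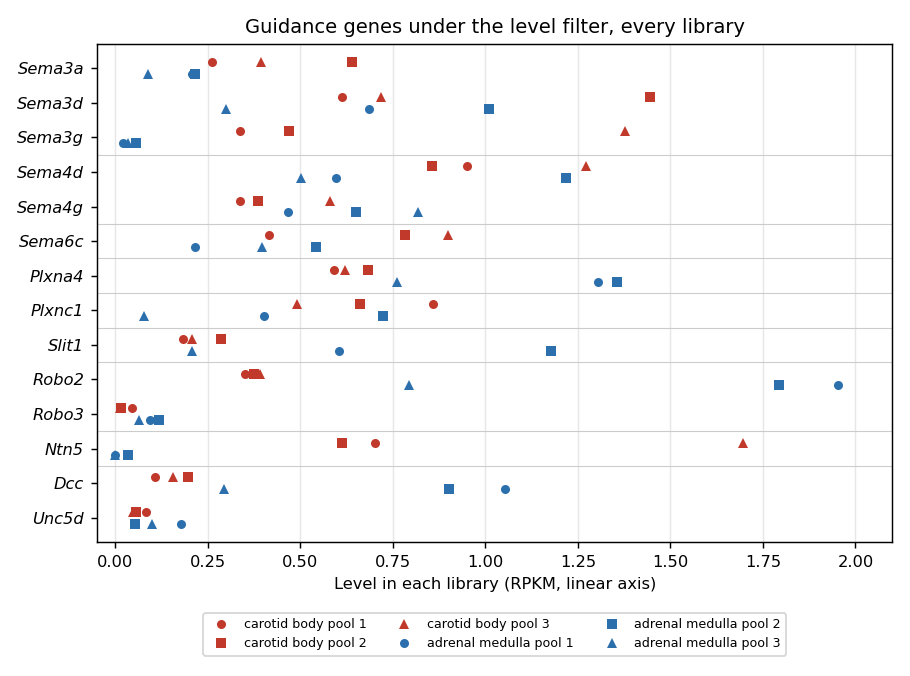
Level of the 14 guidance genes under the filter in every library, in RPKM on a linear axis (red, carotid body; blue, adrenal medulla; symbol shape gives the pool number). Robo2 and Dcc stand with blue points to the right of red, Ntn5 and Sema3g with red to the right of blue, and adrenal pool 3 is the lowest adrenal pool for Robo2 and Dcc.

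Which pool was lowest in its tissue was counted for the members and for all genes. Adrenal medulla pool 3 was the lowest of its tissue for 28 of the 46 members, counting a tie for Ntn5, and for 52.5% of all genes tested. It was the highest adrenal pool for 11 of the 46 members, Plxnb1 and Unc5a among them, and for 31.7% of all genes tested. Robo1, Robo2, Dcc, Sema5a and Sema5b were among those for which it was the lowest. In the carotid body, pool 1 was lowest for 24 of the 46 members, and for 43.9% of all genes tested.

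Genes listed as partners of semaphorin and netrin signalling were called more often toward the carotid body, as were genes at large. Those listed for Slit and Robo were not. Over all genes tested, 14.2% were called toward the carotid body and 7.73% toward the adrenal medulla. Of 23 tested partners of semaphorin signalling, 9 were called toward the carotid body and 0 toward the adrenal medulla (1 at an unadjusted p under 0.05, and 0 called by voom), with a median difference of 0.60. Dpysl4, Erbb2 and Mical2, 3 of the 9, passed the filter only through the carotid body and so had to differ to be tested. The collapsin response mediators Dpysl3 (1.32 ± 0.24) and Dpysl4 (1.23 ± 0.15), which carry semaphorin signals to microtubules, the plexin B co-receptor gene Erbb2 (1.32 ± 0.17) and the actin-oxidising enzyme gene Mical1 (1.29 ± 0.25) differed most. The netrin list was drawn broadly and also takes in Ntng1, a relative of netrins, and ligands of neogenin. Of its 16 tested genes, 9 were called toward the carotid body and 1 toward the adrenal medulla, with a median of 0.70. Ablim3, Ntng1 and Rgma, 3 of these 9, passed the filter only through the carotid body. Ablim1, an actin-binding protein, was at 22.5 ± 4.32 against 1.95 ± 0.988 RPKM (SD, n = 3; 3.03 ± 0.29 SE), followed by the cell adhesion gene Mcam (1.25), Rgma, a ligand of neogenin (1.06), and the kinase gene Ptk2 (1.04). Neo1, the neogenin gene, was not called, at 5.96, 6.59 and 5.88 RPKM against 10.9, 11.0 and 8.66 RPKM (-0.64, adjusted p = 0.0576), but voom on recovered reads called it toward the adrenal medulla. Of 13 tested Slit and Robo partners, 2 were higher in each tissue. These were the Slit-binding surface molecules Sdc1 (1.39) and Dag1 (1.05) in the carotid body, and Flrt3 (-1.43) and the actin regulator gene Enah (-0.73), which passed the filter only through that tissue, in the adrenal medulla. Robo4, the endothelial relative of Robo1, was not called (0.66, adjusted p = 0.0773).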

How the data were processed

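RNA was sequenced from 3 carotid body and 3 adrenal medulla pools. Reads were aligned with Bowtie 0.9.8 to mm9, per the submitters' processing notes; the counting method and annotation are not given in the sources used here. RNA was amplified before library construction, per the labels' protocols, which do not say whether strand was kept, so reads of overlapping antisense genes cannot be told apart. The deposited values are RPKM made by the authors for 23511 of 26728 entries. The other 3217 have no mRNA length, hold whole numbers, include 0 members and were left out. RPKM times mRNA length, divided by the smallest such product of the library, was whole within 0.01 for 106276 of 106276 values above 0, which gave reads per gene and depths of 13266225 to 16445925 reads. These cover counting error only, since amplified reads carry no molecular identifiers.

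Values were tested as log2(RPKM + 1) with limma 3.58.1 (R 4.3.3; variance trend, no block, two-sided) over 13357 genes of at least 1 RPKM in at least 3 libraries, with adjustment over all of them, after a test on simulated data. Python 3.11.15, pandas 2.3.3, numpy 2.4.6 and matplotlib 3.10.9 were used. Alternatives were a pseudocount of 0.1, no filter, median-ratio and quantile scaling, voom on recovered reads, the pool number as a block, and leaving out libraries. The voom fit over genes of at least 10 reads and all alternatives for the partner and Eph lists were added after the data were seen. Every member could be named; of each other list, up to 4 called genes with the largest absolute difference were, and Neo1, Robo4 and Efna3 were named after their values were seen, as were genes named for passing the filter through 1 tissue, the markers and Mical2, Ablim3 and Ntng1. The members and lists were chosen with earlier results of these data known. Of the listed genes, Nell2 and Cd68 are among the entries with no mRNA length and were therefore not used, and 1 Schwann cell marker is not reported here.

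The main test used no block. By the rule set for pairing, under which every same-numbered pair correlates above 0.1, the pool numbers count as paired, and the values with the block are given where they change a call: deviations of same-numbered pools from their tissue means correlated at 0.259, 0.128 and 0.473 across genes. The design note can be read as the same 10 mice giving both tissues. Carotid body pool 2 correlated more with adrenal medulla pool 1 (0.291). Adrenal medulla pool 3 lacks the Y-linked reads of carotid body pool 3 (Ddx3y at 0.0786 and 11.6 RPKM, Eif2s3y at 0 and 12.1 RPKM). As labelled, the pools numbered 3 therefore cannot hold the same set of mice. The pool numbers count as paired by the correlation rule only, and values with the block carry that limit.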

Additional observations from a re-analysis of the deposited data

How the results depend on the processing

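Over the 32 tested members and all alternatives, 403 of the recomputed differences stayed on their side of the threshold with their direction, 23 lost a call, 18 gained a call and 4 changed sign. The sign changes were those of Sema6b under quantile scaling (-0.0142), without carotid pool 3 (-0.08) and without adrenal pool 1 (-0.20, the lowest of a range that reached 0.53 when libraries were left out), and of Ntn3 under quantile scaling (-0.0895), neither of which was called. Of the 12 members higher in the carotid body, 9 were called in all 14 alternatives, the exceptions being Sema4f, Sema6d and Plxna2, and of the 3 higher in the adrenal medulla 0 were. The count of members higher in the carotid body was 10 to 14 throughout. Leaving out 1 library gave 11 to 13. The count higher in the adrenal medulla was 0 with no filter, 5 under quantile scaling, 5 with the pool number as a block, 6 with voom over genes of at least 10 reads, 5 without carotid pool 2 and adrenal pool 3, and 0 to 5 without 1 library; voom over those genes tests 13 further members, and the cause of the other changes was not tested. The block changed the calls of Sema3f, Sema5a, Unc5a and Slit3 and of no other member. For the partner and Eph lists together, 26 genes were called toward the carotid body and 3 toward the adrenal medulla; leaving out 1 library gave 17 to 25 and 1 to 4, voom over genes of at least 10 reads gave 6 toward the latter, and leaving out carotid pool 2 and adrenal pool 3 gave 8. Depth limits the low members, of which Robo3 rested on 5 and 19 reads. It also limits the adrenal medulla level of Ntn4, a tested member, which rested on 14 reads.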

Other observations

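The Eph receptors and ephrins, a contact-dependent guidance family outside the semaphorin, Slit and netrin systems, were also compared between the tissues. Of 22 genes, 15 passed the filter on low values. Limma called 6 toward the carotid body and 0 toward the adrenal medulla, against 14.2% and 7.73% of all genes tested, and 9 were not called. Toward the adrenal medulla 0 had an unadjusted p under 0.05, and voom called 0 there and 5 toward the carotid body. The median difference was 0.59 on the log2(RPKM + 1) scale against 0.02 over all genes tested. Ephb6, a receptor without kinase activity, was at 41.4 ± 14.5 against 4.68 ± 2.87 RPKM (SD, n = 3 pools; 2.95 ± 0.40 SE, limma adjusted p = 9.80e-04). Epha3 was at 5.93 ± 1.59 against 0.492 ± 0.217 RPKM (2.20; it passed the filter only through the carotid body), Ephb3 at 6.26 ± 2.01 against 1.01 ± 0.374 RPKM (1.82) and Epha4 at 5.53 ± 0.952 against 0.884 ± 0.412 RPKM (1.81). Efna3 was listed at 0 in all adrenal medulla pools and stayed under the filter.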
